A study of Homo sapiens with 12 samples.

Results

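The genes described here encode the autophagy machinery and the vacuolar-type proton ATPase (V-ATPase), together with the transcription factors TFEB and TFE3 and the lysosomal membrane proteins LAMP1 and LAMP2. They were chosen by symbol among the protein-coding genes of GENCODE release 44. The rule took symbols that begin with ATG, ULK or WIPI and a number, with GABARAP or MAP1LC3, or with ATP6V or ATP6AP, and added BECN1, SQSTM1, TFEB, TFE3, RB1CC1, PIK3C3, LAMP1 and LAMP2. Of the 60609 genes in the count files, 19886 of them protein-coding, 65 met the rule. They comprised 24 V-ATPase genes and 39 autophagy and lysosomal genes. A further 2 matched by name alone, namely ATP6V1FNB, a neighbour of ATP6V1F, and the readthrough gene ATP6V1G2-DDX39B.

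All libraries came from K562, an established human leukemia line that was derived from chronic myeloid leukemia cells at blast crisis. The control group comprised 3 K562 cultures exposed to DMSO, the solvent, and the treated group 3 K562 cultures exposed to 10 μM FT671, a compound that blocks the deubiquitinase USP7, in each case for 48 h. No further genetic change or agent is named for either group, and the libraries are described as independent experiments. The comparison asks how inhibition of USP7 alters gene expression in leukemic cells, here in a single cell line at a single dose and time.

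Macroautophagy encloses cytoplasmic cargo in a double membrane, the autophagosome, which then fuses with the lysosome. The ULK1 complex starts the process, a class III phosphatidylinositol 3-kinase marks the membrane, ATG9 and ATG2 proteins supply and transfer lipid, and conjugation enzymes attach the small ubiquitin-like ATG8 proteins (LC3 and GABARAP) to the growing membrane. The V-ATPase acidifies the lysosome. Its cytosolic V1 sector hydrolyzes ATP, and its membrane V0 sector moves protons. TFEB and TFE3 activate many lysosomal and autophagy genes through E-box elements known as CLEAR motifs.

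Because TFEB and TFE3 bind E-boxes, the promoters of the chosen genes were searched for CACGTG, and for GTCACGTG and TCACGTGA as forms of the CLEAR motif, on both strands. These motifs overlap each other, since the longer forms contain CACGTG. The windows were RefSeq promoters (GRCh38.p14) from 250 bases before to 50 bases after the transcription start, and 52 of the 65 genes had one, 11 of them several. CACGTG was found in 8 of the 52 genes (15.4%) and in 8.78% of all 27305 genes with a window. GTCACGTG was found in 6 (11.5%, against 2.93%) and TCACGTGA in 4 (7.69%, against 1.18%). Among genes that passed the expression filter, 44 chosen genes and 9863 genes in all had a window. CACGTG was in 18.2% of the former and 12.8% of the latter, GTCACGTG in 13.6% and 5.38%, and TCACGTGA in 9.09% and 2.32%. No match says only that these letters are not in the window. The 4 promoters with TCACGTGA are shown because they carry the longest palindromic form and because their genes went in opposite directions after FT671, LAMP1 and ATP6V1G1 up and ATG3 and ATP6V0D1 down. CACGTG is in capitals, and each sequence reads 5′ to 3′ on the strand of the gene.
LAMP1, chr13:113296989-113297288, plus strand: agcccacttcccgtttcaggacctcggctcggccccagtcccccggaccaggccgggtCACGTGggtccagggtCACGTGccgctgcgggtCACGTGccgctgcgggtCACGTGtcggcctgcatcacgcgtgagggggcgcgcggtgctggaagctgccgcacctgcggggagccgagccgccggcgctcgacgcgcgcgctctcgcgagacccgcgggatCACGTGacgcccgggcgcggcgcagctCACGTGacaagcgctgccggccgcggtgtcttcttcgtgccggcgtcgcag
ATP6V1G1, chr9:114587519-114587818, plus strand: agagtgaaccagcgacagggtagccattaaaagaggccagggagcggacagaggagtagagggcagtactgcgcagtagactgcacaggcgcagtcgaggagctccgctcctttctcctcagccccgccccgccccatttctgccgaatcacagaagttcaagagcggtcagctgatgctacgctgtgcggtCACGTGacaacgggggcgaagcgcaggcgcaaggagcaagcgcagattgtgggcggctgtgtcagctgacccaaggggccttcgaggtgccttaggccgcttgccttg
ATG3, chr3:112561913-112562212, minus strand: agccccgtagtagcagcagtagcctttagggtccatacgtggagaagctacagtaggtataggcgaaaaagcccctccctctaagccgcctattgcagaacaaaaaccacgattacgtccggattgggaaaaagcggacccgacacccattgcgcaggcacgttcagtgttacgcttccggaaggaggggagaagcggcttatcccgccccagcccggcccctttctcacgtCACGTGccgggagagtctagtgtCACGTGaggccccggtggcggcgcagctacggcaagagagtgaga
ATP6V0D1, chr16:67481108-67481407, minus strand: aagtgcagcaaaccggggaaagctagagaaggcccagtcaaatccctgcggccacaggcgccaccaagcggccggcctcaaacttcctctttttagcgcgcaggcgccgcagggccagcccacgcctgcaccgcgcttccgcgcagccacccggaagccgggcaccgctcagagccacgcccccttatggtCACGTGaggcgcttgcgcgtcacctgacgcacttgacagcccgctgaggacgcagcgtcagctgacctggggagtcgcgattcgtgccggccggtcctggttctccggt

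The LAMP1 window held 6 copies of CACGTG, the first at position -192 relative to the start site. ATG3 held 2, and ATP6V1G1 and ATP6V0D1 held 1 each, at positions -58 and -59. ATP6V0B and ATG14, which did not pass the test below, held GTCACGTG as well. ATP6V0E2 and ULK3 held CACGTG alone.

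Total counts ranged from 5320245 to 14250500 in the DMSO libraries and from 4555220 to 11437804 in the FT671 libraries. At these depths 3 counts, taken as the smallest detectable level, correspond to 0.207 to 0.664 CPM (read counts scaled to a common library size). This floor covers counting error only, since these reads carry no molecular identifiers. CPM values below are scaled by TMM factors. DMSO replicate 3 stood apart from DMSO replicates 1 and 2, with 7.55 and 8.73 as the chi-square divided by its degrees of freedom, against 2.94 between those libraries, and chosen genes whose result turns on it are given with and without it. All 13 erythroid markers of K562 were detected above 3 counts, and their summed level was 1291 to 1326 CPM in the DMSO libraries and 1158 to 1202 CPM in the FT671 libraries. Of 15 markers of other cell types, 3 (CD8A, MS4A1 and KRT5) had no count in any library, and the summed level of the list was 144.1 to 150.3 CPM after DMSO and 184.4 to 190.1 CPM after FT671, with LYZ and EPCAM as the main contributors. The part of either shift in the results below was not tested.

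After FT671 all 4 tested genes of the ULK1 complex, 5 of 6 genes of the ATG9, ATG2 and WIPI group and 1 of 3 genes of the phosphatidylinositol 3-kinase complex were downregulated, although the calls on RB1CC1 and WIPI2 were lost in several alternative fits. SQSTM1 was downregulated too. Of 19 tested V-ATPase genes 7 (36.8%) were lower and 4 (21.1%) were higher, namely ATP6V0E2, ATP6V1F, ATP6V1G1 and ATP6AP2. Calls on ATP6V0A2, ATP6V0E1, ATP6V1F and ATP6AP2 were lost in some alternative fits. Of 4 tested ATG8 genes 1, GABARAPL1, was upregulated, as were ATG4C, ATG10 and LAMP1. Low counts kept 10 of the 65 genes out of the test, and the other 55 were tested by edgeR's quasi-likelihood test over all 13895 genes that passed it. At a Benjamini-Hochberg adjusted p under 0.05, 22 of the 55 (40.0%) were lower and 9 (16.4%) were higher, and 24 passed in neither direction. Over all genes tested 26.5% were lower and 23.6% higher at this threshold. Of the 11149 protein-coding genes tested 29.1% were lower and 24.75% higher. ATP6V1FNB, counted as lower, and ULK4, counted as higher, reached the filter's level of 1.21 CPM in every library of 1 group alone and therefore had to differ. Both drop out when at least 10 counts are required in every library, which left 53 genes with 21 lower and 8 higher. Among the 55 genes, lower genes made up 71.0% of the calls. The share was 52.9% over all genes tested and 54.1% over the protein-coding genes tested. Once counts were corrected for gene length the calls were 18 lower and 12 higher, where 3325 of all genes were lower and 3848 higher. The study's methods applied a threshold of 1e-05 to adjusted p-values from DESeq2. With DESeq2's Wald test 6 of the chosen genes passed it here, all lower, with ATG2A, SQSTM1 and WIPI1 among them. In edgeR's test, used below, 3 genes passed 1e-05, ATG13, ATP6V1B2 and ATP6V0D1, all of them lower. Over all genes tested 4.13% were lower and 1.79% higher at 1e-05. Of the 11149 protein-coding genes tested 541 were lower and 232 higher at 1e-05.

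The count of 3 depended on single libraries, although the fold changes moved little. Over the 6 fits that each left out 1 library, the log2 fold change was -1.06 to -0.95 for ATG13, -1.08 to -0.98 for ATP6V1B2 and -0.91 to -0.79 for ATP6V0D1, and the highest adjusted p was 3.34e-05, 2.32e-05 and 0.000288. In edgeR's test the count was 0 without any one of the 3 FT671 libraries, where 19 to 21 of the genes were still lower at 0.05. It was 1 (ATG13) without DMSO replicate 1, 2 (ATG13 and ATP6V1B2) without DMSO replicate 2 and 8 without DMSO replicate 3. Every FT671 library lay below every DMSO library in 25 of the 55 genes, where 30.3% of all tested genes did so, and above in 10, where 26.8% did so. Of the 11149 protein-coding genes tested this held for 3678 below and 3089 above. Among the 55 genes the log2 fold change had its median at -0.14, with -0.09 for V-ATPase genes and -0.16 for autophagy and lysosomal genes, beside -0.01 over all genes tested. The correction for gene length moved the median of the 55 genes to -0.06 and that of all genes to 0.04, and the correction for GC content moved them to -0.07 and 0.03. For autophagy and lysosomal genes these corrections gave -0.06 and -0.09. A lower value in these bulk libraries can mean less RNA per cell or fewer cells with the RNA, and these cannot be told apart. Of the 31 genes called, 22 kept their call in all 19 alternative fits, 16 of them lower and 6 higher.

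**Figure D1:**
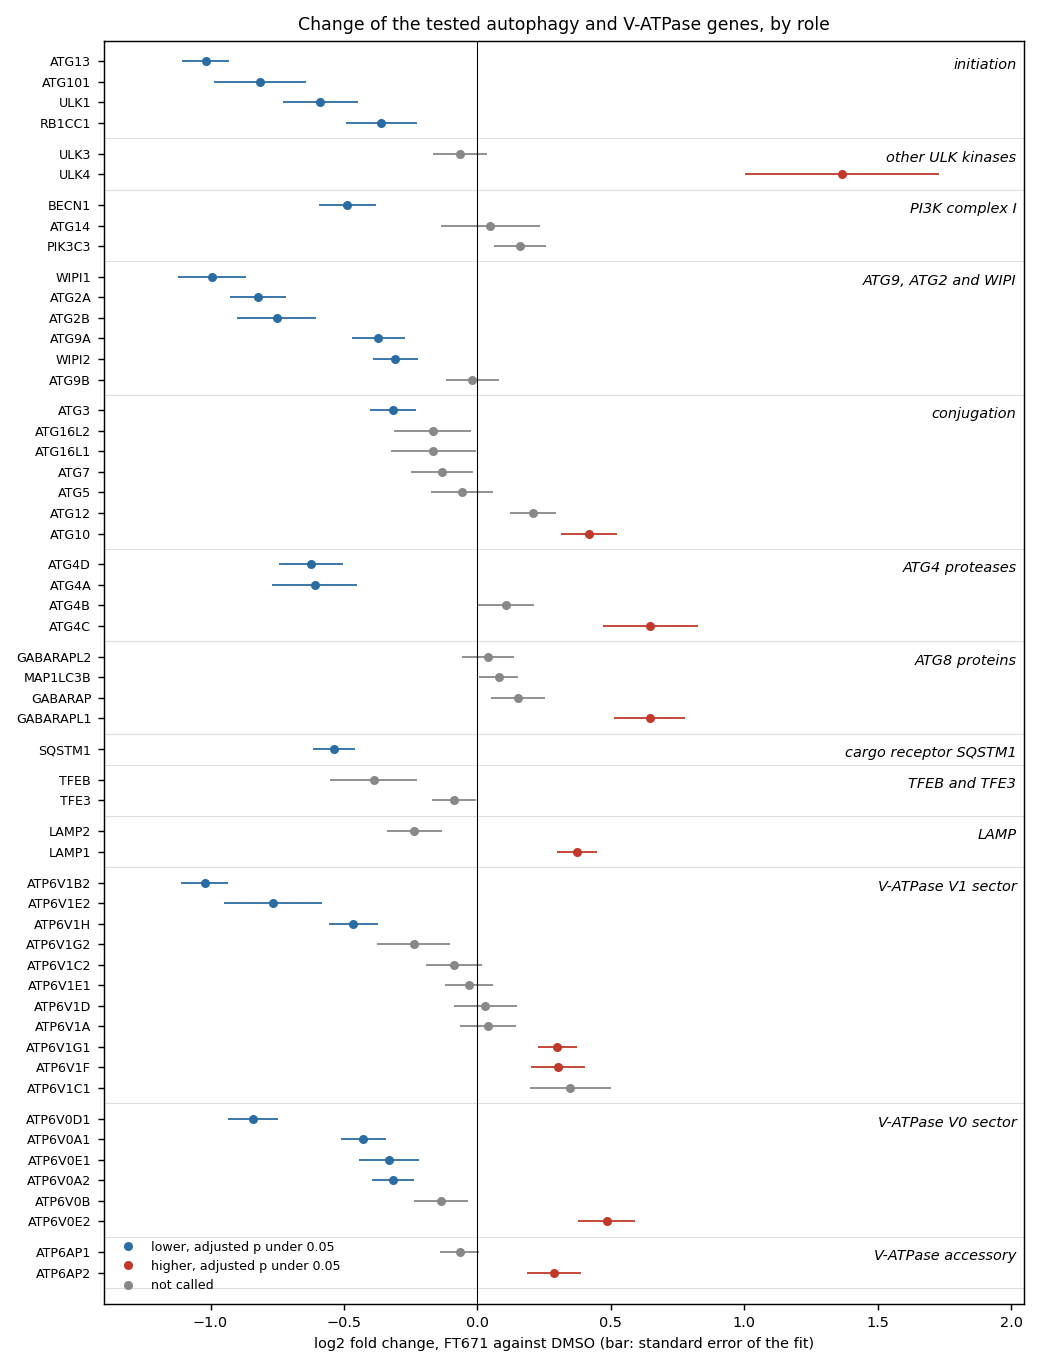
Log2 fold change of FT671 against DMSO for each tested autophagy or V-ATPase gene (points) with the standard error of the fit (bars), grouped by role, with genes at an adjusted p under 0.05 in blue (lower) or red (higher) and the others in grey. The 4 initiation genes lie between -1.02 and -0.36, the 4 ATG8 genes between 0.04 and 0.65, and ATP6V1FNB at -5.04 is left out because it would stretch the axis.

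The ULK1 complex receives nutrient and energy signals and launches autophagosome formation. Its 4 tested genes, ATG13, ATG101, ULK1 and RB1CC1, were all downregulated, with log2 fold changes from -1.02 to -0.36. ATG13 encodes the subunit that links the kinase to its partners (chr11:46617527-46674818 on GRCh38, plus strand). It was measured at 106, 113 and 101 CPM in DMSO replicates 1 to 3 and at 55.6, 47.8 and 54.5 CPM in FT671 replicates 1 to 3. The FT671 libraries were all far below the DMSO libraries, and the groups did not overlap. The log2 fold change was -1.02 (SE 0.09, adjusted p = 6.75e-07), or 49.4% of the DMSO level. ULK1, the kinase itself, was at 38.5, 37.2 and 31.3 CPM after DMSO and at 26.8, 18.0 and 26.5 CPM after FT671. FT671 replicate 2 was the lowest of these, and the groups did not overlap. ULK1 fell by 0.59 on the log2 scale (SE 0.14, adjusted p = 0.00333), to 66.5% of the DMSO level.

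ATG101, which stabilizes ATG13, fell with a log2 fold change of -0.81. It shares 19.2% of its exon bases with a long noncoding RNA on the opposite strand, ENSG00000257663, which had a log2 fold change of -0.90. The strand setting of the counting is not given in the sources used here, so reads of both cannot be told apart in the shared stretch. RB1CC1, the scaffold of the complex also known as FIP200, was the weakest of the group at -0.36 (adjusted p = 0.0364). Its level in DMSO replicate 3, 87.3 CPM, was above the 63.6 and 56.2 CPM of the other DMSO libraries, and without that library its log2 fold change was -0.19 with an adjusted p of 0.0623. The call on RB1CC1 was also lost without each of the FT671 libraries (adjusted p = 0.0882 to 0.0945) and with the correction for gene length (adjusted p = 0.112).

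Among the other ULK kinases, ULK3 was not called (log2 fold change -0.07) and ULK2 had 8 counts in all and was not tested. ULK4 had 12, 8 and 8 counts after DMSO and 7, 12 and 33 counts after FT671, which correspond to 0.828, 0.730 and 1.47 CPM and to 1.55, 2.16 and 2.94 CPM. Every FT671 library was above every DMSO library on the CPM scale, by a small margin between DMSO replicate 3 and FT671 replicate 1. The fitted log2 fold change was 1.37 (SE 0.36). ULK4 passed the filter through the FT671 libraries alone, so this value is a description that rests on few reads. Without FT671 replicate 3, or with at least 10 counts required in every library, the gene no longer passed the filter.

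The class III phosphatidylinositol 3-kinase complex I contains the kinase PIK3C3 (VPS34), the scaffold BECN1 (Beclin 1) and ATG14, which directs the complex to autophagy. Of the 3 genes 1, BECN1, was downregulated. BECN1 was at 41.3, 38.8 and 35.0 CPM after DMSO and at 26.8, 26.1 and 29.2 CPM after FT671, so the groups did not overlap. The log2 fold change was -0.49 (SE 0.11, adjusted p = 0.00169), or 71.3% of the DMSO level. BECN1 overlaps genes on the opposite strand on both sides, CNTD1 (12.4% of its exon bases, log2 fold change -0.61) and PSME3 (4.68%, log2 fold change 0.63). ATG14 and PIK3C3 were not called, at log2 fold changes of 0.05 and 0.16. FBXO34 on the opposite strand covers 20.8% of the ATG14 exon bases and had 1132 counts against 403 for ATG14. Its log2 fold change was -0.76, and the part of FBXO34 reads in the ATG14 counts was not tested. PIK3C3 passed as higher with the correction for gene length (0.29, adjusted p = 0.0252) and with that correction and the replicate block (0.32, adjusted p = 0.01).

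ATG9 proteins are lipid scramblases on the vesicles that seed the autophagosome, ATG2 proteins carry lipid from the endoplasmic reticulum to it, and WIPI proteins read the phosphoinositide made by PIK3C3. In this group of 6 genes 5 were downregulated and ATG9B was not called (log2 fold change -0.02), and their median log2 fold change was -0.56. WIPI1 (chr17:68420948-68457513 on GRCh38, minus strand) was at 20.2, 19.7 and 21.9 CPM after DMSO and at 10.6, 10.3 and 10.1 CPM after FT671. The libraries of each treatment agreed closely and the groups were well separated. WIPI1 fell by 0.99 on the log2 scale (SE 0.13, adjusted p = 2.24e-05), to 50.2% of the DMSO level. ARSG on the opposite strand covers 24.4% of the WIPI1 exon bases and had a log2 fold change of -0.96, and reads of both genes cannot be told apart there.

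ATG2A, ATG2B, ATG9A and WIPI2 fell with log2 fold changes of -0.82, -0.75, -0.37 and -0.31. In each of these 4 called genes every FT671 library was below every DMSO library, as in 30.3% of all genes tested. The call on WIPI2 was lost without FT671 replicate 2 (log2 fold change -0.25, adjusted p = 0.0634) and with the correction for gene length (-0.17, adjusted p = 0.106). ATG9A shares 38.8% of its exon bases with a gene on the same strand, ENSG00000284820, that had 4 counts in all.

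Shares within these pairs of paralogs are given as a description, without a test of the difference between paralogs. On the scale of CPM per kilobase of exons, WIPI1 made up 34.6%, 33.2% and 36.4% of the summed WIPI1 and WIPI2 level in the DMSO libraries and 23.4%, 26.3% and 24.7% in the FT671 libraries. The ranges did not overlap, and WIPI2 made up the rest. ATG9A went from 61.1% ± 2.73 of the ATG9 level to 54.8% ± 2.78 (SD, n = 3), also without overlap, whereas the share of ATG2A in the ATG2 level was 72.8% ± 3.57 and 72.4% ± 2.72 (SD, n = 3), with overlapping libraries. NOS3 covers 12.3% of the ATG9B exon bases on the opposite strand and had 4944 counts over all libraries against 2076 for ATG9B. Its log2 fold change was 0.07, and the part of NOS3 reads in the ATG9 shares was not tested.

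The conjugation enzymes resemble those of ubiquitin. ATG7 is the E1-like enzyme, ATG3 and ATG10 are E2-like, and ATG12, ATG5 and ATG16L1 or ATG16L2 form the complex that sets the site of ATG8 attachment. Of these 7 genes 1 was downregulated, 1 was upregulated and 5 were not called. ATG3 was at 63.7, 64.4 and 63.6 CPM after DMSO and at 48.3, 50.5 and 54.3 CPM after FT671. The DMSO libraries were nearly equal, and all FT671 libraries were lower. ATG3 fell by 0.32 on the log2 scale (SE 0.09, adjusted p = 0.00791), and with the correction for gene length the value was -0.21 with an adjusted p of 0.0523. The ATG3 promoter, shown above, is 1 of the 4 with TCACGTGA.

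ATG10, the E2-like enzyme for ATG12, went the other way. It was at 83.2, 72.7 and 71.3 CPM after DMSO and at 109, 111 and 86.4 CPM after FT671. FT671 replicate 3 lay only just above the highest DMSO library, and the groups did not overlap. The log2 fold change was 0.42 (SE 0.10, adjusted p = 0.00429). The ribosomal protein gene RPS23 lies on the opposite strand over 6.87% of the ATG10 exon bases, had 91519 counts over all libraries against 4471 for ATG10 and had a log2 fold change of 0.44. The part of RPS23 reads in the ATG10 counts was not tested.

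ATG5 and ATG7 were not called. ATG5 was at 27.1, 24.4 and 31.1 CPM after DMSO and at 25.9, 28.1 and 24.9 CPM after FT671, with overlapping groups and a log2 fold change of -0.06 (SE 0.12, adjusted p = 0.709). Its sign turned without DMSO replicate 3 (0.01) and with the correction for gene length (0.04). ATG7 was at 38.6, 38.7 and 31.7 CPM after DMSO and at 32.5, 37.9 and 30.6 CPM after FT671, again with overlap, and its log2 fold change was -0.13 (SE 0.12, adjusted p = 0.369). VGLL4 on the opposite strand covers 18.1% of the ATG7 exon bases and had 1147 counts against 1857 for ATG7. Its log2 fold change was -0.39, and the part of VGLL4 reads in the ATG7 counts was not tested. ATG12, ATG16L1 and ATG16L2 had log2 fold changes of 0.21, -0.16 and -0.17. ATG12 was close to the threshold (adjusted p = 0.0553) and passed it without DMSO replicate 3 (0.0266), without FT671 replicate 1 (0.0373), with DESeq2's size factors (0.0375) and among protein-coding genes alone (0.0393). With the correction for gene length the log2 fold change was 0.34 (adjusted p = 0.0027, or 0.00168 with the replicate block).

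ATG4 proteases trim ATG8 proteins before conjugation and release them afterwards. In this family 2 genes fell, 1 rose and ATG4B was not called (log2 fold change 0.11). ATG4D was at 39.8, 36.6 and 30.6 CPM after DMSO and at 24.1, 24.8 and 21.9 CPM after FT671. The groups did not overlap, and the log2 fold change was -0.62 (SE 0.12, adjusted p = 0.000662). KRI1, which covers 14.7% of the ATG4D exon bases on the opposite strand, had a log2 fold change of 0.26. ATG4A fell to a like degree, with a log2 fold change of -0.61. ATG4C was at 8.70, 7.21 and 11.4 CPM after DMSO and at 11.3, 15.3 and 14.3 CPM after FT671. DMSO replicate 3 was just above FT671 replicate 1, so the groups overlapped, although ATG4C passed the test with a log2 fold change of 0.65 (SE 0.18, adjusted p = 0.00771). Per kilobase of exons, ATG4C made up 10.2% ± 2.83 of the summed ATG4 level after DMSO and 18.9% ± 2.46 after FT671 (SD, n = 3), and ATG4D made up 54.1% ± 4.45 and 44.9% ± 4.03 (SD, n = 3).

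ATG8 proteins sit on the autophagosome membrane, where they bind cargo receptors. Of the 7 ATG8 genes 4 were tested, of which 1 rose and 3 were not called. The rise was in GABARAPL1 (chr12:10212458-10223128 on GRCh38, plus strand), which was at 10.9, 12.1 and 12.3 CPM after DMSO and at 17.7, 16.5 and 19.9 CPM after FT671. All FT671 libraries were higher, without overlap. The log2 fold change was 0.65 (SE 0.13, adjusted p = 0.00109), or 156.5% of the DMSO level. MAP1LC3B, which encodes the LC3B protein commonly used as a marker of autophagosomes, was at 111, 115 and 114 CPM after DMSO and at 116, 117 and 125 CPM after FT671. Its FT671 libraries were all above the DMSO libraries by a narrow margin, and with a log2 fold change of 0.08 (SE 0.07, adjusted p = 0.377) it was not called. It passed the threshold with the correction for GC content (0.16, adjusted p = 0.0457, or 0.0434 with the replicate block).

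GABARAP and GABARAPL2 were not called, with log2 fold changes of 0.15 and 0.04, and GABARAP passed without FT671 replicate 1 (0.26, adjusted p = 0.0384). MAP1LC3A and MAP1LC3C had 1 count each over all libraries, and MAP1LC3B2, a near-identical copy of MAP1LC3B that can share its reads, had 48. Per kilobase of exons GABARAP was the highest of the family, at 32.8 ± 1.02 CPM per kb after DMSO and 36.2 ± 5.12 after FT671 (SD, n = 3), and GABARAPL1 the lowest of the 4 tested, at 2.90 ± 0.19 and 4.45 ± 0.42. GABARAPL1 thus made up 3.67% ± 0.21 of the ATG8 level after DMSO and 5.17% ± 0.47 after FT671 (SD, n = 3).

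SQSTM1 (p62) ties ubiquitin-bearing cargo to ATG8 proteins and is itself degraded by autophagy (chr5:179806398-179838078 on GRCh38, plus strand). Its RNA was at 412, 456 and 375 CPM after DMSO and at 285, 294 and 280.0 CPM after FT671. The 3 FT671 libraries were close to each other and below every DMSO library. SQSTM1 fell by 0.54 on the log2 scale (SE 0.08, adjusted p = 7.3e-05), to 69.0% of the DMSO level. MRNIP, which covers 21.0% of the SQSTM1 exon bases on the opposite strand, had 8742 counts against 19064 for SQSTM1 and a log2 fold change of -0.57.

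**Figure D2:**
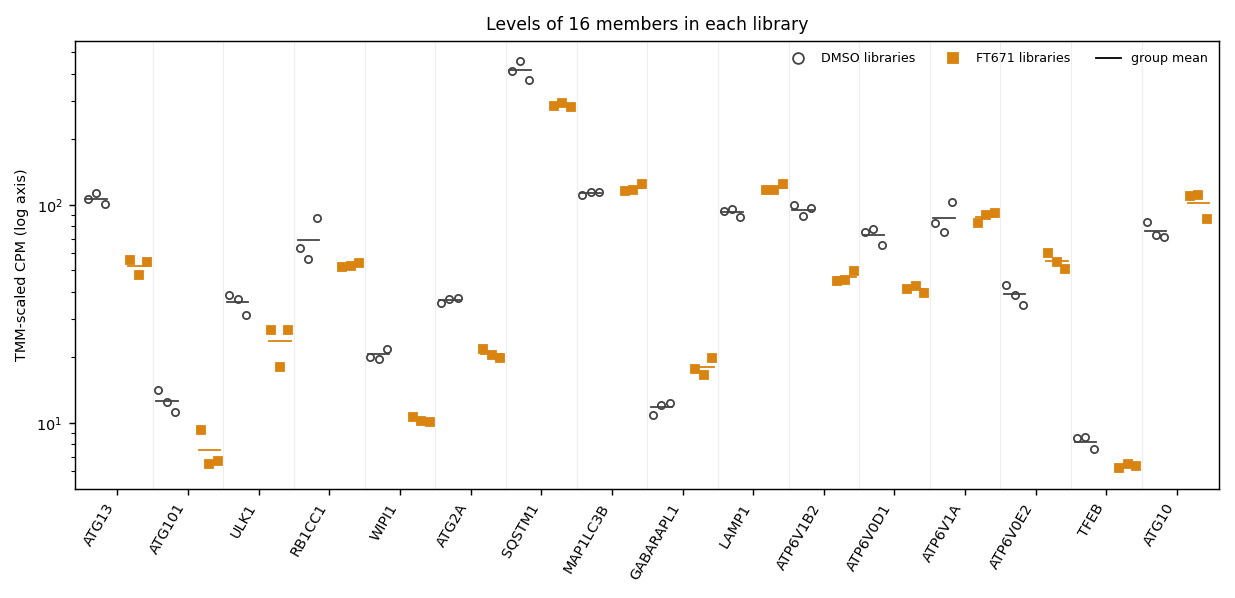
TMM-scaled CPM of selected genes in each library on a log axis, with DMSO libraries as open circles, FT671 libraries as filled squares and group means as lines. ATG13, WIPI1, ATP6V1B2 and ATP6V0D1 separate into a DMSO cluster and an FT671 cluster, with fitted levels after FT671 between 49.3% and 55.8% of DMSO, whereas the groups overlap for ATP6V1A and lie close together for MAP1LC3B.

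TFEB and TFE3 enter the nucleus when the lysosome signals nutrient lack or stress, a step that RNA levels do not show. TFEB was at 8.49, 8.58 and 7.55 CPM after DMSO and at 6.20, 6.47 and 6.32 CPM after FT671. All FT671 libraries were below all DMSO libraries, but the log2 fold change of -0.39 (SE 0.16) did not pass the threshold (adjusted p = 0.0617). TFEB did pass without DMSO replicate 3 (-0.44, adjusted p = 0.0402), with scaling by library totals alone (-0.42, adjusted p = 0.0439) and with thinned counts (-0.59, adjusted p = 0.0386). TFE3 was at 89.8, 100.1 and 88.6 CPM after DMSO and at 85.4, 83.3 and 92.6 CPM after FT671. The groups overlapped, and its log2 fold change was -0.09 (SE 0.08, adjusted p = 0.393). Per kilobase of exons TFE3 was the more abundant, at 22.1 ± 1.5 CPM per kb against 1.22 ± 0.08 for TFEB in the DMSO libraries (SD, n = 3).

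The V1 sector is built around a ring of alternating A and B subunits that hydrolyzes ATP, with C, E, G and H subunits in its stalks and D and F subunits in its rotor. Of 11 tested V1 genes 3 were downregulated, 2 were upregulated and 6 were not called. ATP6V1B2, on chromosome 8, encodes the B subunit found in most tissues. It was at 100, 88.7 and 96.5 CPM after DMSO and at 44.7, 45.3 and 49.7 CPM after FT671. The lowest DMSO library was well above the highest FT671 library. ATP6V1B2 fell by 1.02 on the log2 scale (SE 0.09, adjusted p = 6.85e-07), to 49.3% of the DMSO level, and its paralog ATP6V1B1 had no count in any library.

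ATP6V1A, which encodes the A subunit of the same ring, was at 82.2, 75.0 and 102.6 CPM after DMSO and at 82.8, 89.9 and 91.4 CPM after FT671. The FT671 libraries lay inside the range of the DMSO libraries, and the log2 fold change was 0.04 (SE 0.11, adjusted p = 0.77), with a change of sign without DMSO replicate 2 (-0.05). On the per-kilobase scale the 2 ring genes were at similar levels after DMSO, 13.7 ± 2.27 CPM per kb for ATP6V1A and 12.2 ± 0.74 for ATP6V1B2 (SD, n = 3). After FT671 they were at 13.9 ± 0.73 and 5.97 ± 0.35 CPM per kb (SD, n = 3), which no longer overlapped.

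ATP6V1F, a rotor subunit, had the highest level per length of the chosen genes, 528.8 ± 94.7 CPM per kb over its 762 exon bases after DMSO (SD, n = 3). It was at 401, 476 and 332 CPM after DMSO and at 504, 506.5 and 484 CPM after FT671. The FT671 libraries were above the DMSO libraries, the closest of which was DMSO replicate 2. ATP6V1F rose with a log2 fold change of 0.30 (SE 0.10, adjusted p = 0.0239), but its call was lost without DMSO replicate 1 (adjusted p = 0.0648) and without each of FT671 replicates 1, 2 and 3 (0.0649, 0.0775 and 0.0542). ATP6V1G1 rose to a like degree (log2 fold change 0.30), and ATP6V1E2 and ATP6V1H fell with log2 fold changes of -0.76 and -0.46.

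The V1 genes that were not called, ATP6V1A, ATP6V1C1, ATP6V1C2, ATP6V1D, ATP6V1E1 and ATP6V1G2, had log2 fold changes from -0.24 to 0.35. The highest of these was ATP6V1C1 (adjusted p = 0.0696), whose level in DMSO replicate 3, 41.6 CPM, lay within the FT671 libraries at 36.5 to 42.1 CPM, against 27 and 26.6 CPM in the other DMSO libraries. Without DMSO replicate 3 its log2 fold change was 0.55 (adjusted p = 3.34e-05), and it passed in 8 of the 19 alternative fits. ATP6V1C2 shares 29.5% of its exon bases with PDIA6 on the opposite strand, and the genes had log2 fold changes of -0.09 and -0.08. ATP6V1G3 had no count.

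Isoform shares in the G, C and E subunits of the V1 sector are given as a description, without a test. ATP6V1G1 made up 74.1% ± 1.0 of the summed G level per kilobase after DMSO and 80.8% ± 2.98 after FT671, and ATP6V1C1 made up 14.1% ± 1.54 and 18.1% ± 2.07 of the C level (SD, n = 3). ATP6V1E2, a minor isoform, went from 2.29% ± 0.29 to 1.37% ± 0.16 of the E level (SD, n = 3). In each of these families the shares of the DMSO and FT671 libraries did not overlap. For the C subunit the margin was narrow. ATP6V1C1 made up 15.83% in DMSO replicate 3 and 15.93% in FT671 replicate 2, and neither C gene was called. Genes on the opposite strand share exon bases with ATP6V1C2 (PDIA6, 29.5%, 17945 counts against 5721), ATP6V1G2 (NFKBIL1, 9.33%, 3268 against 1234) and ATP6V1E2 (RHOQ, 4.58%, 437 against 343). Their log2 fold changes were -0.08, -0.39 and -0.52. The part of their reads in these shares was not tested.

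**Figure D3:**
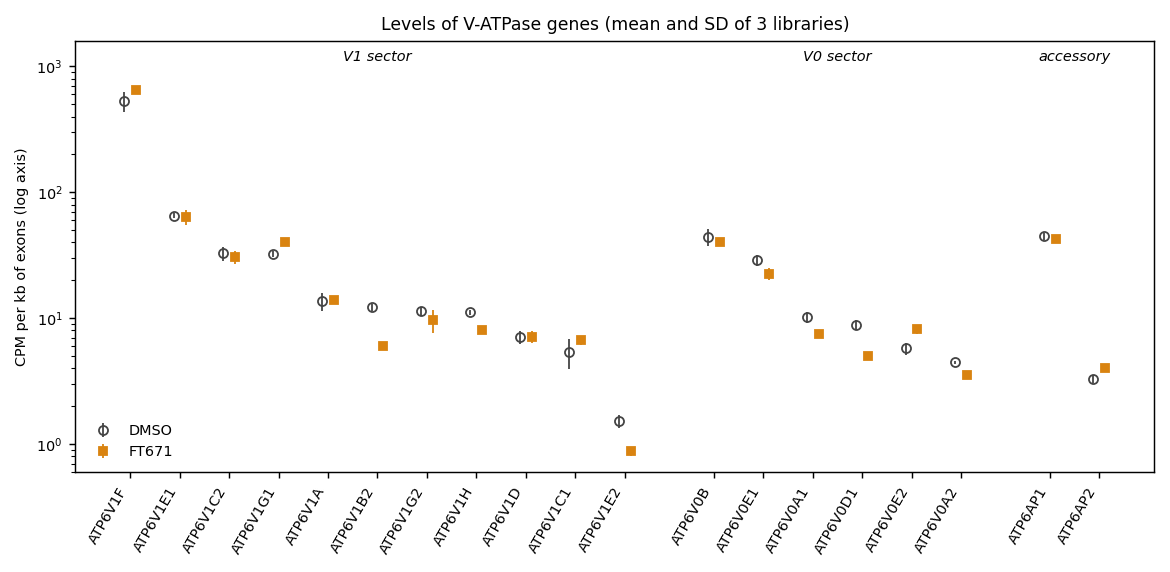
Level of each tested V-ATPase gene per kilobase of exons on a log axis, as mean and SD of the 3 DMSO libraries (open circles) and the 3 FT671 libraries (filled squares), ordered by level within the V1 sector, the V0 sector and the accessory genes. ATP6V1B2 drops from 12.2 to 5.97 CPM per kb beside ATP6V1A, which stays at 13.7 and 13.9, and ATP6V0D1 drops from 8.91 to 5.01 CPM per kb.

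The V0 sector holds the proton-carrying ring of c subunits, the a subunit with the proton channels, the d subunit that couples the ring to V1, and the small e subunit. Of 6 tested V0 genes 4 were downregulated, 1 was upregulated and ATP6V0B was not called (log2 fold change -0.14), although ATP6V0B passed as lower without DMSO replicate 3 (-0.26, adjusted p = 0.00206). ATP6V0D1 (chr16:67438014-67481181 on GRCh38, minus strand) encodes the d subunit, and its promoter with TCACGTGA is shown above. It was at 75.2, 77.4 and 65.4 CPM after DMSO and at 41.2, 42.3 and 39.3 CPM after FT671. The FT671 libraries were close together and far below the DMSO libraries. The log2 fold change was -0.84 (SE 0.10, adjusted p = 8.03e-06), or 55.8% of the DMSO level, and its paralog ATP6V0D2 had no count.

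The a subunit genes ATP6V0A1 and ATP6V0A2 fell with log2 fold changes of -0.43 and -0.32, and the share of ATP6V0A1 in their summed level per kilobase was 69.6% ± 1.87 after DMSO and 67.9% ± 0.63 after FT671 (SD, n = 3), with overlap. The call on ATP6V0A2 was lost with the correction for gene length (-0.19, adjusted p = 0.0588). TCIRG1, which encodes a further a subunit outside the symbol rule and was looked up after these values were seen, was at 38.8, 32.1 and 31.3 CPM after DMSO and at 46.3, 48.9 and 43.6 CPM after FT671 (log2 fold change 0.42, SE 0.11, adjusted p = 0.00524). The share above leaves out TCIRG1, which was at 7.41 ± 0.89 CPM per kb after DMSO and 10.06 ± 0.57 after FT671 (SD, n = 3). ATP6V0A1 was at 10.22 ± 1.01 and 7.555 ± 0.302 CPM per kb (SD, n = 3). A share with TCIRG1 in the sum was not computed. ATP6V0A4 had no count.

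In the e subunit the isoforms went opposite ways. ATP6V0E2 was at 43.1, 38.7 and 34.8 CPM after DMSO and at 60.2, 54.8 and 50.7 CPM after FT671. All FT671 libraries were higher, and ATP6V0E2 rose with a log2 fold change of 0.48 (SE 0.11, adjusted p = 0.00181). Its antisense RNA ATP6V0E2-AS1, which covers 12.8% of its exon bases, had a log2 fold change of 0.56. ATP6V0E1 fell with a log2 fold change of -0.33, a call that was lost without DMSO replicate 1 (adjusted p = 0.0658), FT671 replicate 1 (0.0868) or FT671 replicate 2 (0.101). Per kilobase of exons, ATP6V0E2 made up 17.9%, 18.1% and 14.0% of the e level in the DMSO libraries and 29.8%, 27.6% and 22.7% in the FT671 libraries. The lowest FT671 share was above the highest DMSO share.

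ATP6V0C, which encodes the main c subunit, had 5, 1 and 1 counts after DMSO and 6, 3 and 8 counts after FT671, and its highest level was 1.33 CPM. It did not pass the filter and no fold is given. A gene on the same strand, ENSG00000260272, covers 60.9% of its exon bases and had 0 counts itself, and the part of this overlap in the low count was not tested.

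The accessory proteins ATP6AP1 and ATP6AP2 assist assembly of the pump, and ATP6AP2 is also known as the prorenin receptor. ATP6AP2 was at 33.5, 29.0 and 32.2 CPM after DMSO and at 36.8, 39.4 and 39.2 CPM after FT671. The groups did not overlap, and the gene rose with a log2 fold change of 0.29 (SE 0.10, adjusted p = 0.0294). Its call was lost without DMSO replicate 2 (adjusted p = 0.119), FT671 replicate 2 (0.0881) or FT671 replicate 3 (0.0993), with scaling by library totals alone (0.056) and without a filter (0.136). ATP6AP1 was not called (log2 fold change -0.07).

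LAMP1 and LAMP2 are abundant glycoproteins that line the inner face of the lysosomal membrane. LAMP1 (chr13:113297239-113323672 on GRCh38, plus strand), whose promoter with 6 copies of CACGTG is shown above, was at 93.7, 96.0 and 87.5 CPM after DMSO and at 117, 117 and 125 CPM after FT671. All FT671 libraries were higher by a clear margin. The log2 fold change was 0.37 (SE 0.08, adjusted p = 0.00097), or 129.6% of the DMSO level. LAMP2 was at 152.8, 147.9 and 198 CPM after DMSO and at 130.6, 147.3 and 142.5 CPM after FT671. Its FT671 libraries were below the DMSO libraries by a narrow margin at the closest, and with a log2 fold change of -0.24 (SE 0.10) it did not pass the threshold (adjusted p = 0.0701). It passed as lower in 6 of the 19 alternative fits, without DMSO replicate 2 (-0.31, adjusted p = 0.0295), with the correction for GC content (-0.28, adjusted p = 0.000615, or 0.000482 with the replicate block), without a filter (-0.27, adjusted p = 0.0136), with library totals alone (-0.27, adjusted p = 0.0469) and with the replicate block (-0.24, adjusted p = 0.0271). LAMP1 made up 50.9% ± 5.17 of the summed LAMP1 and LAMP2 level per kilobase after DMSO and 61.3% ± 1.48 after FT671 (SD, n = 3), without overlap.

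**Figure D4:**
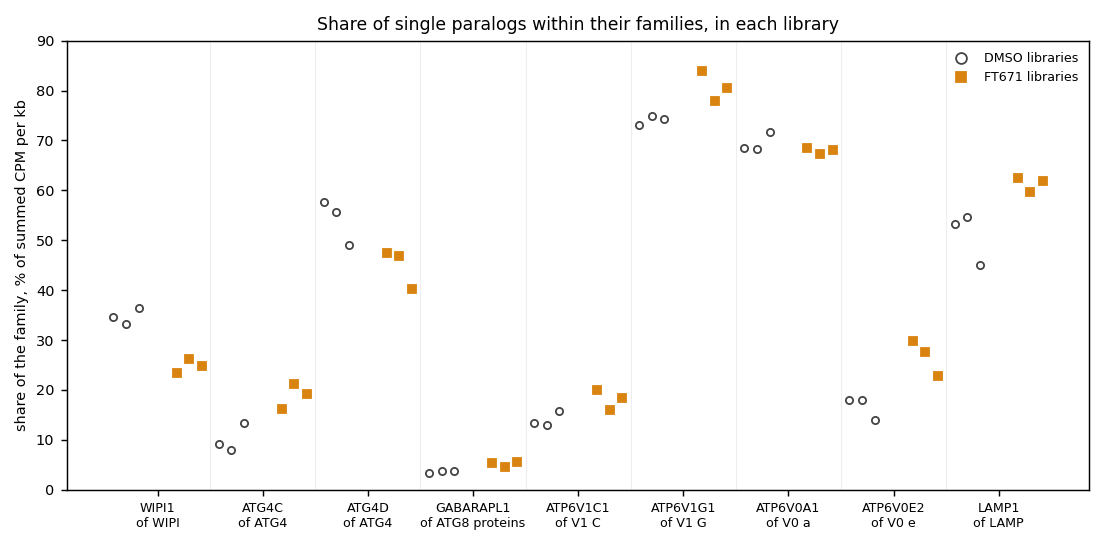
Share of a paralog in the summed CPM per kilobase of its family, in percent, for each DMSO library (open circles) and each FT671 library (filled squares). ATP6V0E2 goes from 14.0% to 18.1% of the e subunit after DMSO to 22.7% to 29.8% after FT671. WIPI1 falls to 23.4% to 26.3%. The ATP6V0A1 libraries overlap, in a family sum that leaves out the a subunit gene TCIRG1.

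ATP6V1FNB, which lies just downstream of ATP6V1F on the same strand (chr7:128866330-128872047 on GRCh38, plus strand) and matched by name alone, had 36, 15 and 11 counts after DMSO and 0, 0 and 1 counts after FT671. It was thus near absent from the treated libraries, and it passed the filter only through the DMSO libraries. With the floor of 3 counts in each FT671 library its level was at least 4.0-fold lower. The fitted log2 fold change of -5.04 depends on the prior count and is no bound. KCP on the opposite strand covers 48.9% of its exon bases and 20.6% of those of ATP6V1F, and had a log2 fold change of 0.26 (adjusted p = 0.273). ATP6V1G2-DDX39B had no count.

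Genes with related roles that the symbol rule did not take were listed by known function, 131 of which were tested. Of these 37 (28.2%) were lower and 24 (18.3%) higher at 0.05, beside the 26.5% and 23.6% of all genes tested, and 6 (4.58%) were past 1e-05, all lower, where 4.13% of all genes were lower. Their median log2 fold change was -0.01. Of 16 other regulators of autophagy 5 were lower and the rest were not called, and of 16 other cargo receptors 4 were lower and 3 higher. Of 14 genes for fusion with the lysosome 4 were lower and 4 higher, and of 13 partners of the V-ATPase 4 were lower and 2 higher. Among 24 genes of mTORC1 control at the lysosome 9 were lower and 7 higher, among 6 AMPK subunits and their kinase 1 was lower, and among 42 lysosomal enzymes and membrane proteins 10 were lower and 8 higher.

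The 6 genes past 1e-05 are given with every library and not as a result about the lists. STK11 (LKB1), the kinase that activates AMPK, was at 107.9, 107.2 and 95.4 CPM after DMSO and at 44.1, 35.6 and 38.0 CPM after FT671 (log2 fold change -1.41, SE 0.10, adjusted p = 1.14e-07). DAPK1, a death-associated kinase that phosphorylates Beclin 1, was at 65.6, 66.5 and 77.4 CPM after DMSO and at 29.7, 24.1 and 25.3 CPM after FT671 (-1.41, SE 0.11, adjusted p = 2.73e-07). Both were far lower in every FT671 library than in any DMSO library. In mTORC1 control, FNIP2, a partner of folliculin, and TBC1D7, a subunit of the TSC complex, had log2 fold changes of -1.31 (SE 0.11, adjusted p = 3.86e-07) and -1.16 (SE 0.13, adjusted p = 5.57e-06). FNIP2 was at 56.1, 61.4 and 68.7 CPM after DMSO and at 24.1, 24.5 and 25.6 CPM after FT671, and TBC1D7 at 26.6, 22.6 and 26.4 CPM and at 11.3, 10.8 and 11.4 CPM. VPS18, a core subunit of the HOPS tether for autophagosome fusion, fell with a log2 fold change of -1.31 (SE 0.14, adjusted p = 6.31e-06), and SMPD1, the lysosomal acid sphingomyelinase, with -1.16 (SE 0.13, adjusted p = 9.48e-06). VPS18 was at 42.2, 39.2 and 37.8 CPM after DMSO and at 20.8, 16.4 and 12.9 CPM after FT671, and SMPD1 at 28.9, 29.0 and 22.9 CPM and at 13.3, 11.0 and 12.4 CPM. The FT671 and DMSO libraries overlapped in none of these 6 genes, which were picked for a low adjusted p in the same libraries. Over all genes tested every FT671 library lay below every DMSO library in 30.3%.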

How the data were processed

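Libraries were prepared from total RNA of K562 cells after ribosomal depletion (3 after DMSO, 3 after 10 μM FT671, each for 48 h) and read from both ends. Alignment to hg38 was done by the authors with STAR (two-pass mode), and each deposited table holds 1 raw read count per gene. The STAR version, the annotation release and the strand setting of the counting are not given in the sources used here. The 6 ChIP-seq samples of the series were not analysed here.

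Of 60609 genes, 60295 were matched by identifier to GENCODE release 44, which gave symbols, positions, merged exon lengths and overlaps. The computations used R 4.3.3, edgeR 4.0.16, DESeq2 1.42.0 and Python 3.11.15. Counts were filtered with filterByExpr (13895 genes kept), scaled by TMM and compared with the quasi-likelihood test without covariates, with Benjamini-Hochberg adjustment over all genes tested. A gene was called at an adjusted p under 0.05. The standard error is the size of the log2 fold change divided by the square root of F. The common biological coefficient of variation was 0.0832. The procedure was tested on simulated data. P-values measure the spread between libraries, which are described as independent experiments.

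The genes and lists were chosen with earlier results of these data known, so no list was tested and lists are described by counts and medians. Every library is given for genes past 1e-05, for the largest rise and fall past 0.05 in each role group and for a set of key genes, and the other genes are named with their role. Beyond the rule, TCIRG1 and the overlapping genes are named, as are values from libraries or settings that end or bring a call. Alternatives were DESeq2's size factors and Wald test, scaling by library totals or without the 20 genes with the most counts, no filter, a minimum of 10 counts in each library, a test restricted to protein-coding genes, the replicate number as a block, loess corrections (span 0.3) for exon length and GC content with and without the block, thinning to the smallest total, and leaving out each library. Shares of paralogs were also computed with the longest transcript in place of merged exons. Promoters came from RefSeq (GRCh38.p14).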

Additional observations from a re-analysis of the deposited data

How the results depend on the processing

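With 3 libraries a group, calls between 0.05 and 1e-05 moved with single libraries and settings. Across the 19 alternatives 18 to 24 of the chosen genes were lower and 6 to 12 higher at 0.05. The count lower at 1e-05 was 6 with DESeq2's Wald test, 11 without a filter and 5 with the GC correction, and 0 to 8 with 1 library left out. The median log2 fold change of all chosen genes, -0.1364 in the reported fit, was -0.1692 with library totals alone, -0.1768 without a filter, -0.1828 with thinned counts, -0.06201 with the length correction and -0.07272 with the GC correction. For the autophagy and lysosomal genes the same 5 settings gave -0.1997, -0.2011, -0.2304, -0.05952 and -0.08666, and leaving out 1 library gave -0.2104 to -0.1187.

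The replicate numbers were not taken as pairs in the reported fit. The deviations of same-numbered libraries correlated at 0.115, -0.0605 and 0.140, and those of differently numbered libraries at -0.168 to 0.125. These values do not settle whether DMSO and FT671 cultures were paired by experiment. With the replicate block 23 genes were lower and 10 higher, with ATP6V1C1 and LAMP2 added. With the block and the length correction the medians were -0.07934 for all chosen genes and -0.06865 for autophagy and lysosomal genes, and with the block and the GC correction -0.07392, -0.08953 and, for V-ATPase genes, -0.03523. Signs turned in genes that were not called. ATG5 was at 0.03704 with the length correction, 0.03135 with that and the block and -0.1328 to 0.008255 with 1 library left out, ATG7 at 0.03437 with the length correction and the block, ATP6V1A at -0.04699 to 0.1612 with 1 library left out and TFE3 at 0.006696 with the GC correction. The cause of these shifts was not tested.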

Other observations

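Gene length and base composition of the chosen genes are given as a description, without a test. The median length of merged exons was 7001 bases in 21 lower genes (ATP6V1FNB left out), 5669 in 24 genes that were not called and 5445 in 9 higher genes, beside 5410 in 11149 protein-coding genes tested. The ranges overlapped, with 1609 to 17214 bases in the lower genes and 762 to 9541 bases in the higher genes. The median GC content of the longest transcript was 49.1% in the lower genes, 47.6% in those not called, 45.4% in the higher genes and 48.0% in the protein-coding genes tested. Across the 54 genes Spearman's rho between log2 fold change and exon length was -0.17, and across all protein-coding genes tested it was -0.17 as well. For GC content of the longest transcript rho was -0.31 across the 54 genes and -0.10 across all protein-coding genes tested. These correlations are across genes, which share the libraries and are not independent replicates.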
